A study of Mus musculus with 8 samples.

Results

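In hearts of newborn mice, 1353 expressed loci without a gene symbol shared the genomic interval of a locus that has one. These unannotated loci were selected on their own levels: they lie on an autosome, their interval falls wholly within that of a named locus, and 4 or more of the 8 hearts had 1 FPKM or higher. FPKM gives the fragments counted for a locus relative to an effective length, shorter than its transcript, and to the fragments mapped in that library. The 1353 come from 80155 loci in all, of which 40541 carry no symbol and 38944 of these are autosomal. Any level being allowed, 2809 unannotated autosomal loci fell within a named interval. Since levels chose these loci, their levels are described without a test.

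RNA was sequenced from whole hearts of male Hsd:ICR(CD-1) mice, an outbred stock, at postnatal day 1 (P1) and postnatal day 7 (P7). Each stage had 4 hearts, each from 1 mouse and sequenced as 1 library, with the atrial appendages cut away before freezing. The labels name no engineered allele and no agent for either stage, and both stages were depleted of ribosomal RNA and prepared with the ScriptSeq v2 kit. The comparison of P7 with P1 asks how heart transcripts change over the days in which cardiomyocytes leave the cell cycle and turn to fatty acid oxidation. In whole tissue, fewer cells of a type and less RNA per cell cannot be told apart.

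As background, a gene is first copied whole, introns included, and the introns are then spliced out. Total RNA from which only ribosomal RNA was removed holds unspliced RNA and RNA without a poly(A) tail besides mature messengers, so an assembler can report stretches of a gene that join no known exon as loci of their own. Other such stretches are long noncoding RNAs, which may start beside the promoter of a neighbouring gene or serve as the primary transcript from which microRNAs (miRNAs) are cut.

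For all 1353 loci the deposited interval was exactly that of the containing gene. The files therefore do not say where within the gene a locus lies, or whether it is exonic or intronic, and "within a gene" here means sharing its interval on mouse genome GRCm38. The 1353 loci fell in 239 intervals of 1396 to 1027318 bases (median 221635). In 96 intervals there was 1 such locus, and 35 intervals held 10 or more, 833 loci in all. The locus identifiers run along the chromosomes first for genes of the plus strand and then for genes of the minus strand, and for 24460 singly named loci the run matched the GENCODE strand in 99.6%. By this order 555 of the unannotated loci belong to the plus strand and 798 to the minus strand. Of these 1268 shared the strand of the containing gene and 85 did not. In GENCODE M21 the gene covering most of the interval on the locus's strand was protein coding for 1190 loci, and 30 had none.

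The files hold no counts, but each FPKM is a whole multiple of what 1 fragment is worth at a given length, which gave the length and fragments for 1293 of the 1353 loci (95.6%). In the fit, FPKM divided fragments by the length less an offset of 158 to 201 bases, depending on the heart. Short loci had a further correction. Compared with division by the full length, the offset raises FPKM more for short loci than for long ones, by amounts that differ between hearts. The recovered transcripts were 213 to 13717 bases long, with quartiles of 473, 860 and 1902 bases, and 356 were under 500 bases. A locus had a median of 25 fragments in a heart (quartiles 11 and 66), and 21.2% of the values rested on fewer than 10 fragments. On 2017 unannotated loci alone in their interval, 1925 (95.4%) returned the interval's own length and 39 a shorter one. The fragment value and length offset were fitted on loci of this same kind with their interval lengths, so the check is not independent.

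In 16 of the intervals, holding 127 of the unannotated loci, a miRNA hairpin lies on the locus's strand in RefSeq. The mature sequences of the intervals named for let-7b and let-7c-2, for 2810055G20Rik and for miR-100 are shown because the unannotated loci there share the strand of these hairpins. Bases 2 to 8, the seed that pairs with target messengers, are in capitals. They fall into 2 seed groups, GAGGUAG for the let-7 miRNAs and ACCCGUA for miR-99a and miR-100 (RefSeq, GRCm38.p6, all plus strand).
let-7b-5p (chr15:85707325-85707346): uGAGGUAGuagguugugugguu
let-7c-5p (chr15:85706616-85706637 and chr16:77599672-77599693): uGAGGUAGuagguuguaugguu
miR-99a-5p (chr16:77598940-77598961): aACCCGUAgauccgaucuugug
miR-100-5p (chr9:41531437-41531458): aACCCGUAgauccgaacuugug

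The start regions of Slc8a1, Hand2 and Hand2os1 are shown because the unannotated loci with the highest levels share the strand of Slc8a1 or of Hand2os1, an annotated antisense RNA that starts 124 bases from Hand2 on the opposite strand. Each runs from 250 bases before the RefSeq start to 50 bases after it, with the transcribed bases in capitals (GRCm38.p6). The Hand2 and Hand2os1 windows cover overlapping bases of opposite strands.
Slc8a1 (chr17:81738338-81738637, minus strand): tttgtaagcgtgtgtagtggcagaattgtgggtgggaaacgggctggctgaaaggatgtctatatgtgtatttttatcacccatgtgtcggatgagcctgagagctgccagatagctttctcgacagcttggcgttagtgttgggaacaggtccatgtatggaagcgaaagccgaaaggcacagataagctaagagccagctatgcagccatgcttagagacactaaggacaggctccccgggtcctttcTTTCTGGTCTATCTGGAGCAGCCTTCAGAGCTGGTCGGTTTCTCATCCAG
Hand2 (chr8:57320733-57321032, plus strand): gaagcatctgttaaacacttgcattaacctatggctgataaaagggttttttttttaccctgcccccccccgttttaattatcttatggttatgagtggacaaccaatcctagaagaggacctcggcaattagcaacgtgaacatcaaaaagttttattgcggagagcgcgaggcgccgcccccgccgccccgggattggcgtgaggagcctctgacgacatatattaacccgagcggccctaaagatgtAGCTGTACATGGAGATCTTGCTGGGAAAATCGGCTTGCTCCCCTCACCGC
Hand2os1 (chr8:57320810-57321109, minus strand): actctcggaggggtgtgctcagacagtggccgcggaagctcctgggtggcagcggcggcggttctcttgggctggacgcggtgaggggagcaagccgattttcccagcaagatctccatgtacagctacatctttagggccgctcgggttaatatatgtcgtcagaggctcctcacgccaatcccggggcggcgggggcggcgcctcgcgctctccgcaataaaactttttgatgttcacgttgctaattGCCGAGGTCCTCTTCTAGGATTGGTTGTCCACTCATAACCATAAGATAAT

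Most of the loci were weakly expressed. The mean over 8 hearts ran from 0.795 to 169.7 FPKM with a median of 2.02, 667 were below 2 and 61 were at 10 or more. Those 61 sat in 14 intervals, with 18 in that of Pdzd2, 11 in that of Hand2, 10 in that of Slc8a1 and 8 in that of Chd2, a chromatin remodeller. 30 of the 61 had a recovered length under 500 bases and 8 one of 2000 or more. Compared with division by the full length, the length offset raises FPKM most for such short loci. Its part in these ranks was not tested. A level of 1 FPKM was reached in all 8 hearts by 695 loci, and in only 4 by 147. By their 4 P1 hearts alone 6 loci entered, and by their 4 P7 hearts alone 12; of these, 2 and 5 were among the loci called different between stages. Their selection favours that difference, so their separation and p are no support. They are XLOC_067494 and XLOC_067504 at Plekha7, entered at P1, and XLOC_067617 at Sbk1, XLOC_023228 at Itm2b, XLOC_037960 at Gm13479, XLOC_057196 at 2900026A02Rik and XLOC_070479 at Psd3, entered at P7. Selection also favours, to a lesser degree, called loci that reached 1 FPKM in few hearts of the lower stage, such as XLOC_018076 at Slc12a7.

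Just inside the limit were XLOC_069945 in the Tacc1 interval, XLOC_006493 in the interval of AU041133 and Zfp873 and XLOC_000507 in the Dst interval, whose values in the heart that decided entry were 1.0009, 1.0023 and 1.0027 FPKM. Just outside were XLOC_029417 in the interval of CT009575.1 and Park2, XLOC_070514 in that of AC114995.1 and Lzts1 and XLOC_073659 in that of Fat3, at 0.9990, 0.9990 and 0.9979 FPKM.

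**Figure D1:**
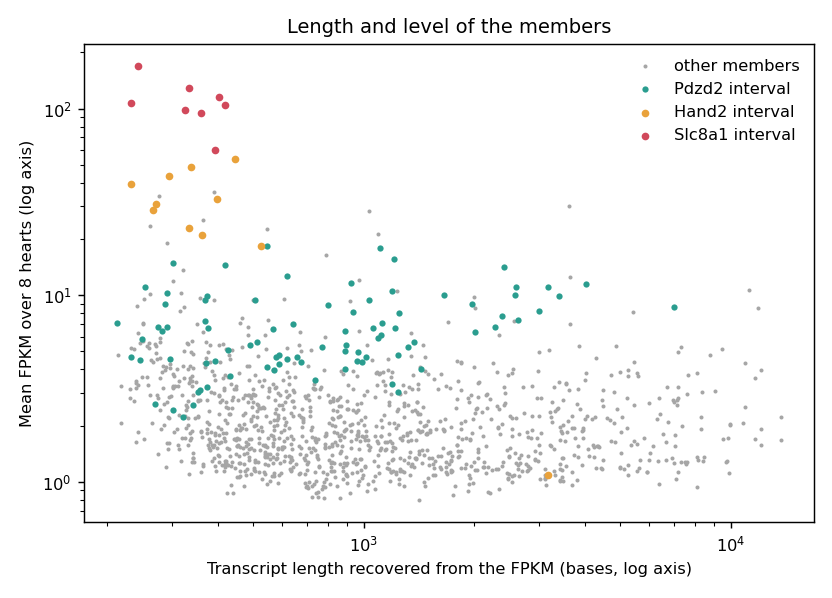
Mean FPKM over 8 hearts (log axis) of the 1293 unannotated loci with a recovered transcript length, against that length in bases (log axis), with the intervals of Slc8a1, Hand2 and Pdzd2 coloured. The Slc8a1 loci, 232 to 417 bases long, stand above all others with a recovered length, and the Pdzd2 loci spread from 213 to 7016 bases.

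Beside the containing gene the loci were low. Their mean FPKM was a median of 20.2% of that of the gene (quartiles 11.2% and 36.2%). In every one of the 8 hearts 1187 loci lay below their gene and 8 above it.

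Between the stages, 25 of the 1353 loci were higher and 7 lower at P7 (limma on log2(FPKM + 1), adjusted p under 0.05 over all 43172 tested loci and stage means 1.5 times apart or more). That is 1.85% and 0.517%, where 3.45% and 0.371% of all tested loci and 0.397% and 0.349% of tested unannotated loci were called higher and lower. Tested loci needed 1 FPKM in only 1 heart and the 1353 in 4, so these shares and the medians below rest on unlike limits. The 25 came from 15 intervals and the 7 from 2, those of Slc8a1 and Plekha7. In 31 of the 32 the 4 P7 hearts lay on one side of the 4 P1 hearts, the other being an Sbk1 locus. The median log2 fold change of the 1353 was 0.065, of all tested loci -0.08 and of tested unannotated loci -0.24. Fold changes on this scale understate those of weakly expressed loci.

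The number of calls depended on single hearts. Without P1 replicate 1, 2, 3 or 4 there were 11, 1, 4 and 82 higher and 3, 0, 6 and 8 lower loci. Without P7 replicate 1, 2, 3 or 4 there were 3, 12, 2 and 19 higher and 2, 3, 5 and 2 lower. All 32 kept their direction in each of these fits. For the 31 with stages apart, leaving out a heart could not turn it. Of the 32, the number still called was 13, 1, 9 and 32 without P1 replicates 1 to 4. It was 4, 13, 6 and 19 without P7 replicates 1 to 4. The balance of directions depended on scaling, with 78.1% of the calls higher at P7 in the deposited values against 31.8% after median-ratio scaling (20 higher, 43 lower) and 53.4% after quantile normalization (31 higher, 27 lower). Median-ratio scaling moved the median log2 fold change of all tested loci from -0.08 to -0.27, and that of the 1353 turned from 0.065 to -0.10.

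Of 67 intervals with at least 5 unannotated loci, 16 had all of them above 0, 7 had all below 0 and the others had loci on both sides. Over these 67 intervals the median change of the loci and the change of the containing gene had a Pearson r of 0.65 and a Spearman rho of 0.70. Over the 1349 single loci with a tested gene these were 0.47 and 0.46. All are given as a description, since locus and gene are read from the same 8 libraries. Of the 32 called loci, 31 had the sign of their containing gene, and for 9 the gene was called too. Of 237 tested containing genes, 25 were called higher and 1 lower, the locus named 1300015D01Rik and Ctcfl. Calls over the whole table leaned the same way, with 1490 higher and 160 lower of 43172 tested loci. Of these, the 25212 unannotated loci had only 100 and 88, so the lean lay among named loci at large and is not particular to the containing genes. Under median-ratio scaling 25 containing genes were called higher and 16 lower, and after quantile normalization 25 and 18.

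**Figure D2:**
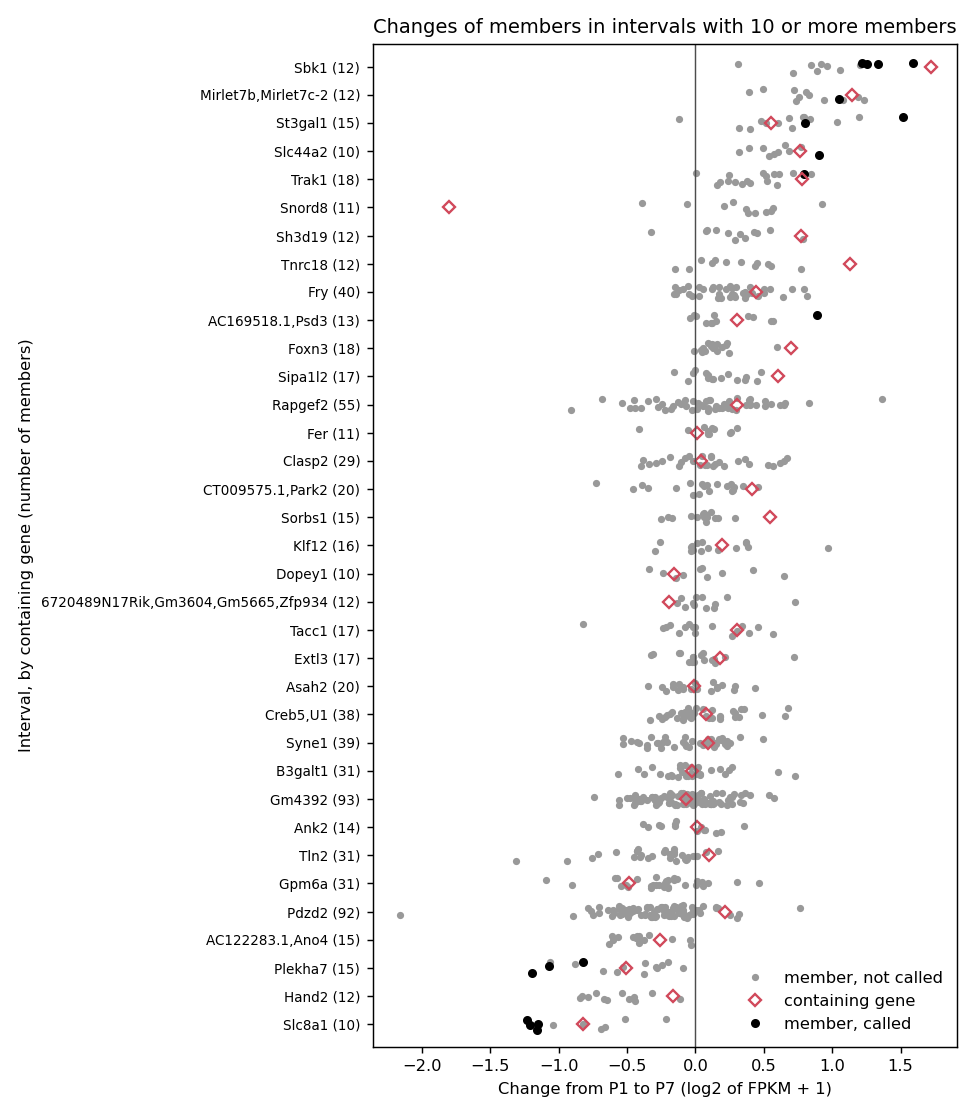
Change from P1 to P7 on the log2(FPKM + 1) scale for every unannotated locus (points) and for the containing gene (diamonds) in the 35 intervals with 10 or more such loci, ordered by the median of the loci, with black points for called loci. The intervals of Slc8a1 and Plekha7 lie left of 0 and those of Sbk1 and of let-7b and let-7c-2 right of it.

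The highest unannotated FPKM came from the interval of Slc8a1, the sodium-calcium exchanger that removes calcium from cardiomyocytes after each beat (chr17:81364983-81738992). Its 10 loci, all on the strand of the gene and next to it in identifier order, were lower at P7, 4 of them by the test, and held 9 of the 10 highest means of all 1353. They were 232 to 417 bases long where a length was recovered, with 48 to 789 fragments per heart. At these lengths the length offset raises FPKM compared with division by the full length, by an amount that differs between hearts. Its part in these levels was not tested.

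XLOC_032562 had 140.5, 174, 104 and 183 FPKM in the P1 hearts and 46.1, 49, 95.6 and 67.9 in the P7 hearts. XLOC_032564 had 148, 145, 115 and 133 FPKM in the P1 hearts and 56.7, 41.1, 81.6 and 67.9 in the P7 hearts. In both, each P1 heart was above each P7 heart, and P7 replicate 3 was the highest of its stage. The first fell from 150.3 ± 35.9 at P1 to 64.7 ± 22.8 at P7 (SD, n = 4 each), a change of -1.23 ± 0.27 on the log2 scale (SE; adjusted p = 0.0277, limma). The second fell from 135 ± 14.9 at P1 to 61.8 ± 17.1 at P7 (SD, n = 4 each), a change of -1.15 ± 0.23 on the log2 scale (SE; adjusted p = 0.0201, limma). XLOC_032561 and XLOC_032565 also fell, by 1.21 (limma adjusted p = 0.0303) and 1.16 (limma adjusted p = 0.0279) on the log2 scale.

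The highest mean of all, 169.7 FPKM, was that of XLOC_032558, with 211, 187, 139 and 286 FPKM in the P1 hearts and 89.7, 76.3, 214 and 155 in the P7 hearts. Its stages overlapped, P7 replicate 3 lying above P1 hearts, and it was not called (log2 fold change -0.69, limma adjusted p = 0.279). XLOC_032559, with a mean of 146 FPKM, had the smallest change of the 10, -0.22 on the log2 scale. The others that were not called, XLOC_032556, XLOC_032557, XLOC_032560 and XLOC_032563, lay between -0.52 and -1.04.

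The locus named Slc8a1 itself had 415, 444, 394 and 708 FPKM at P1 and 237, 196, 387 and 289.9 at P7. Its hearts did not overlap between stages either, with means of 490.4 ± 147 at P1 and 278 ± 82.6 at P7 (SD, n = 4 each), but a change of -0.82 ± 0.27 on the log2 scale (SE; adjusted p = 0.116, limma) left it uncalled. The median of the 10 loci was -0.93, and none was called in the test of the difference from the gene. The number of called loci was 4 without P1 replicate 3, P1 replicate 4 or P7 replicate 3, and 1 when P1 replicate 1 or either of P7 replicates 2 and 4 was left out. It was 0 without P1 replicate 2 or P7 replicate 1. Under median-ratio scaling 7 of the 10 were called lower.

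**Figure D3:**
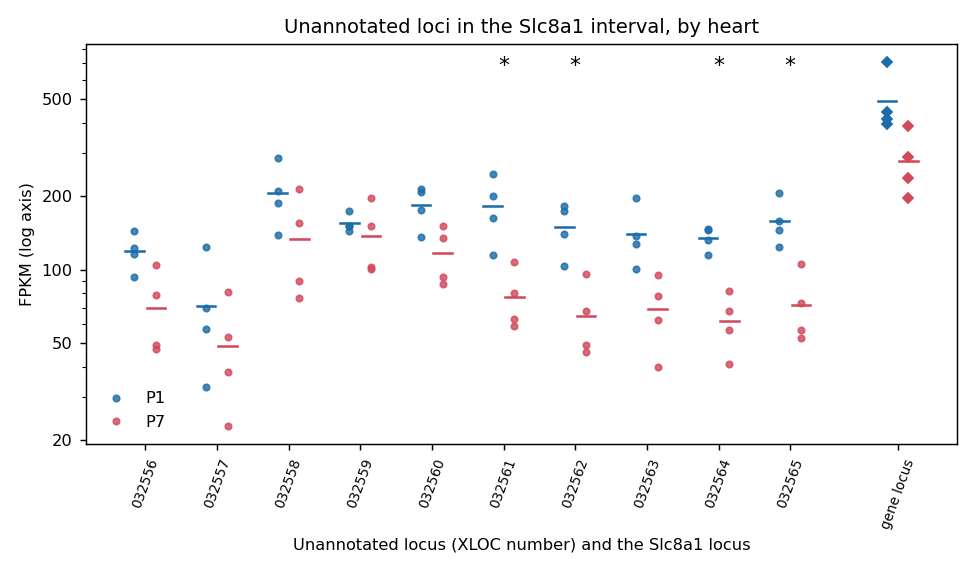
FPKM (log axis) of the 10 unannotated loci of the Slc8a1 interval and of the Slc8a1 locus (diamonds) in each of 4 P1 hearts (blue) and 4 P7 hearts (red), with a bar at each stage mean and an asterisk over the 4 called loci. In the called loci every P7 heart lies below every P1 heart, and the gene stands above all 10.

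The other interval with loci called lower was that of Plekha7, a protein of the adherens junctions that join cells (chr7:116122626-116237823). All 15 of its unannotated loci, on the strand of the gene, had lower means at P7 (median log2 fold change -0.53), and 3 were called. XLOC_067504 had 1.39, 2.49, 1.72 and 2.17 FPKM in the P1 hearts and 0.438, 0.169, 0.597 and 0.362 in the P7 hearts. No P7 heart reached a P1 heart, but the locus rested on 1 to 12 fragments per heart and, like XLOC_067494, entered through its P1 hearts alone, so that it had to differ. It fell from 1.94 ± 0.485 at P1 to 0.392 ± 0.178 at P7 (SD, n = 4 each), a change of -1.07 ± 0.20 on the log2 scale (SE; adjusted p = 0.0175, limma). XLOC_067503 was the lowest of the 15, with a change of -1.19 ± 0.27 on the log2 scale (SE; adjusted p = 0.0338, limma) and 2 to 20 fragments per heart, and XLOC_067494 was the remaining call, with a change of -0.82 ± 0.20 on the log2 scale (SE; adjusted p = 0.0405, limma). Plekha7 itself had 5.28 ± 2.36 at P1 and 3.31 ± 1.05 at P7 (SD, n = 4 each) FPKM and was not called (log2 fold change -0.51, limma adjusted p = 0.326). The number of called loci was 0 without P1 replicate 2, 1 without P1 replicate 3 or any single P7 heart, 2 without P1 replicate 1 and 3 without P1 replicate 4. Under median-ratio scaling it was 5. Without P1 replicate 2 the median of the 15 was -0.33, without P1 replicate 4 it was -0.42 with 13 loci below 0, and without P7 replicate 2 it was -0.42 with 14 below 0.

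On chromosome 15, 12 unannotated loci shared the interval and strand of the let-7b and let-7c-2 hairpins (chr15:85649775-85708669), where GENCODE places the long noncoding RNA Lncppara. The let-7 miRNAs are known for restraining cell cycle genes and for rising as tissues mature. All 12 loci had higher means at P7, with log2 fold changes of 0.39 to 1.23 and a median of 0.82. FPKM of these loci measure long RNA and not the mature miRNAs printed above.

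A single locus of the 12 was called, XLOC_024645, a transcript of 3802 bases with 1.48, 1.05, 0.807 and 2.25 FPKM in the P1 hearts and 4.42, 3.7, 4.02 and 3.28 in the P7 hearts. No P1 heart reached a P7 heart, and the locus rested on 53 to 247 fragments per heart. It rose from 1.4 ± 0.633 at P1 to 3.86 ± 0.485 at P7 (SD, n = 4 each), a change of 1.05 ± 0.21 on the log2 scale (SE; adjusted p = 0.0223, limma). XLOC_024641, with 1.72, 1.62, 0.894 and 5.54 FPKM in the P1 hearts and 7.5, 5.57, 6.87 and 5.07 in the P7 hearts, had the highest change, 1.23, but P1 replicate 4 fell among the P7 hearts and it was not called (limma adjusted p = 0.0524). P1 replicate 4 was the highest P1 heart in all but XLOC_024634.

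The named locus, with 8.31, 7.63, 6.25 and 14.7 FPKM at P1 and 24.2, 19.6, 21.2 and 18 at P7, rose and was called, a change of 1.15 ± 0.24 on the log2 scale (SE; adjusted p = 0.0233, limma). Without P1 replicate 4 10 of the 12 were called, and with sample quality weights 9. None was called without P1 replicate 2, P1 replicate 3, P7 replicate 1 or P7 replicate 3. Without P7 replicate 2 there were 2, and 1 without P1 replicate 1 or P7 replicate 4. With the replicate number as a block 3 were called, and under median-ratio scaling 2.

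In the interval of 2810055G20Rik, which GENCODE calls Mir99ahg, the 8 loci on the strand of let-7c-1 and miR-99a had means of 5.03 to 21.7 FPKM, a median change of -0.15 and no call. The 9 loci beside miR-100 had 1.02 to 2.19 FPKM, a median change of 0.21 and no call. Over all 127 loci that share an interval and strand with a hairpin, the median log2 fold change was -0.02, and XLOC_024645 was the 1 call.

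Most calls within 1 interval, 6 of 9 loci, were at Slc12a7, a potassium-chloride cotransporter (chr13:73733070-73847631). All 9 had higher means at P7, with a median log2 fold change of 0.97. XLOC_018076 had 0.881, 0.886, 1.08 and 0.987 FPKM in the P1 hearts and 2.8, 2.45, 3.37 and 2.74 in the P7 hearts. The P7 hearts lay well clear of the P1 hearts. Of the P1 hearts only replicate 3 reached 1 FPKM, so the locus entered mostly through its P7 hearts, which favours this separation. It rose from 0.958 ± 0.0939 at P1 to 2.84 ± 0.385 at P7 (SD, n = 4 each), a change of 0.97 ± 0.17 on the log2 scale (SE; adjusted p = 0.015, limma), with 20 to 82 fragments per heart. XLOC_018072 had 0.714, 0.909, 1.25 and 2.06 FPKM in the P1 hearts and 4.47, 2.86, 4.64 and 4.02 in the P7 hearts, with no overlap, and XLOC_018074 was the highest of the interval, with a change of 1.19 ± 0.28 on the log2 scale (SE; adjusted p = 0.0387, limma). XLOC_018070, XLOC_018071 and XLOC_018077 rose by 0.89, 1.17 and 1.08 (limma adjusted p of 0.046, 0.0202 and 0.0327).

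The Slc12a7 locus had 9.99, 10.1, 7.71 and 17.4 FPKM at P1 and 15.5, 14, 21 and 17.3 at P7. P1 replicate 4 lay above 3 of the P7 hearts, and the gene was not called, with a change of 0.59 ± 0.24 on the log2 scale (SE; adjusted p = 0.211, limma). The differences of the 6 called loci from the gene ranged from 0.30 to 0.60 and none was called (lowest adjusted p = 0.139). The number of called loci was 3, 0, 2 and 7 without P1 replicates 1 to 4 and 1, 3, 0 and 4 without P7 replicates 1 to 4. Under median-ratio scaling it was 4.

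At Sbk1, a protein kinase (chr7:126248248-126297212), all 12 unannotated loci had higher means at P7, with a median log2 fold change of 1.01, and 4 were called. XLOC_064680 had the highest log2 fold change of all 1353 loci, with 0.925, 1.93, 1.59 and 3.96 FPKM in the P1 hearts and 13.5, 11, 7.23 and 3.16 in the P7 hearts. P7 replicate 4 lay below P1 replicate 4, so the stages overlapped. It rose from 2.1 ± 1.31 at P1 to 8.71 ± 4.5 at P7 (SD, n = 4 each), a change of 1.59 ± 0.37 on the log2 scale (SE; adjusted p = 0.0365, limma), on 5 to 49 fragments per heart. XLOC_064679, with 1.52, 1.36, 0.188 and 1.33 FPKM in the P1 hearts and 6.98, 5.19, 3.5 and 1.99 in the P7 hearts, did separate the stages, a change of 1.33 ± 0.32 on the log2 scale (SE; adjusted p = 0.039, limma). XLOC_064670, a transcript of 6687 bases, rose by 1.21 (limma adjusted p = 0.0297).

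The other called locus, XLOC_067617, lay on the opposite strand, where GENCODE has no gene over this interval, with 0.634, 0.238, 0.893 and 0.923 FPKM in the P1 hearts and 4.48, 1.56, 4.37 and 2.15 in the P7 hearts. It rose too, a change of 1.25 ± 0.27 on the log2 scale (SE; adjusted p = 0.0278, limma), on 2 to 39 fragments per heart, but it entered through its P7 hearts alone, with every P1 heart under 1 FPKM, so that a higher level at P7 was favoured by its selection. Sbk1 itself, with 6.01, 3.79, 2.6 and 7.96 FPKM at P1 and 23.8, 15.1, 20.2 and 14.1 at P7, rose without overlap, a change of 1.72 ± 0.28 on the log2 scale (SE; adjusted p = 0.0105, limma). Leaving out P1 replicates 1 to 4 left 0, 0, 0 and 8 of the 12 called, and leaving out P7 replicates 1 to 4 left 0, 2, 0 and 5. Without P7 replicate 1, 11 of the 12 stayed above 0. Under median-ratio scaling 2 of the 12 were called.

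**Figure D4:**
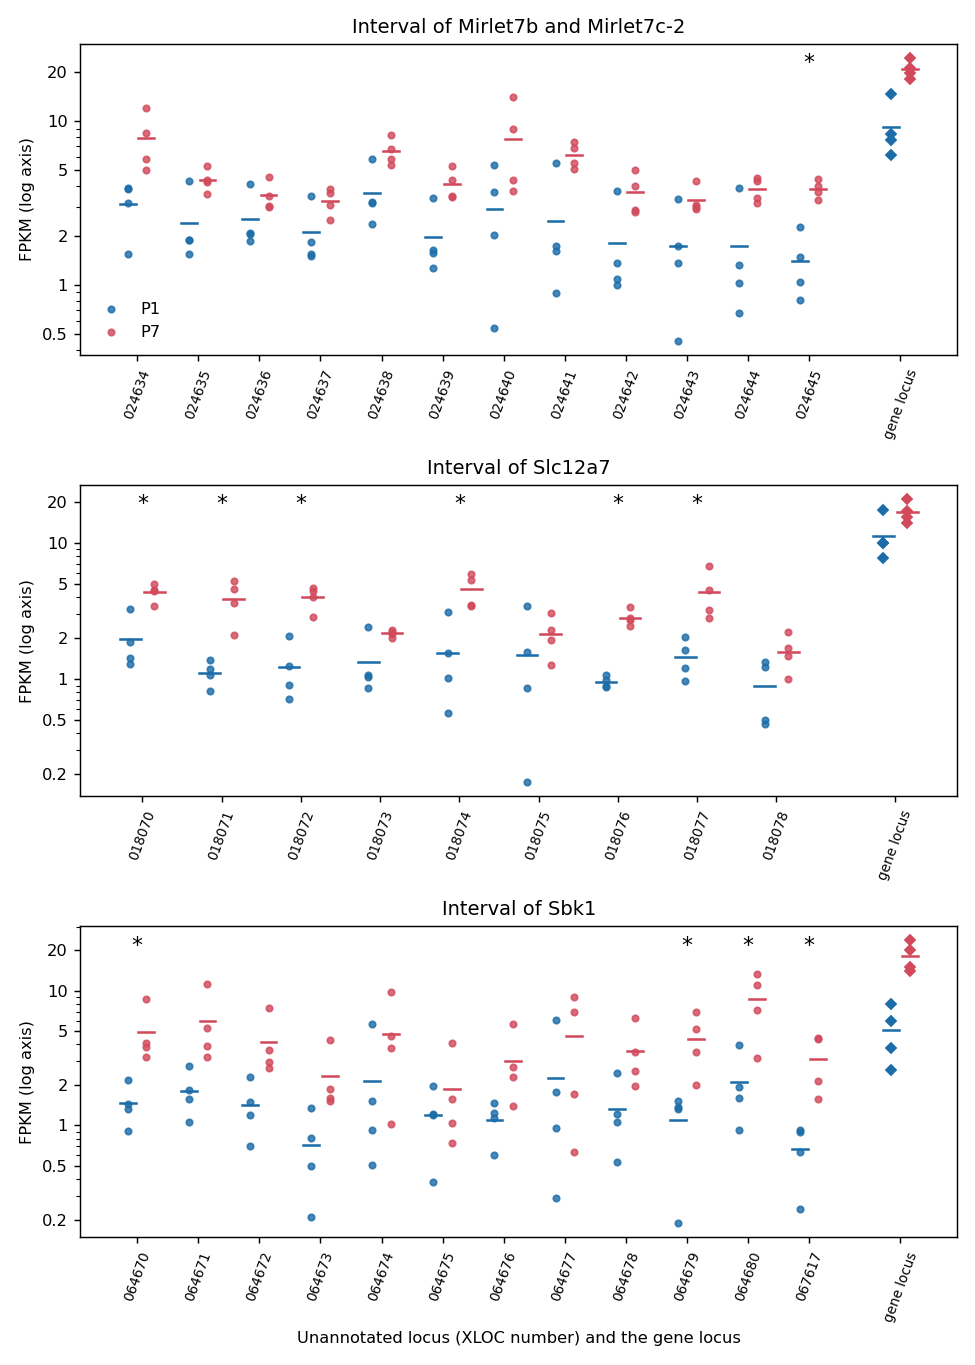
FPKM (log axis) of the unannotated loci in the intervals of let-7b and let-7c-2, Slc12a7 and Sbk1, and of the gene locus (diamonds), in each of 4 P1 hearts (blue) and 4 P7 hearts (red), with a bar at each stage mean and an asterisk over called loci. The P7 mean is above the P1 mean in all 12, 9 and 12 loci, and 1, 6 and 4 are called.

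In the interval of Tnxa and Tnxb, the latter being tenascin X of the extracellular matrix (chr17:34660429-34804561), 2 of 5 loci were called. Tnxa resembles part of Tnxb, so reads may be split between them and these values are uncertain. XLOC_030099 had 2.13, 1.89, 2.6 and 1.15 FPKM in the P1 hearts and 7.76, 7.95, 6.49 and 6.74 in the P7 hearts, close together within each stage and far apart between them, and had the lowest p of all 1353 loci. It rose from 1.94 ± 0.603 at P1 to 7.24 ± 0.725 at P7 (SD, n = 4 each), a change of 1.50 ± 0.20 on the log2 scale (SE; adjusted p = 0.00553, limma), on 3 to 31 fragments per heart. XLOC_030098 rose too, a change of 1.36 ± 0.29 on the log2 scale (SE; adjusted p = 0.0272, limma). The gene had 7.64 ± 4.12 at P1 and 31.1 ± 4.4 at P7 (SD, n = 4 each) FPKM, a change of 2.00 ± 0.28 on the log2 scale (SE; adjusted p = 0.00615, limma). Leaving out any of P1 replicates 2 and 3 and P7 replicates 1 and 3 left 1 call, without P1 replicate 4 there were 3, and in the others 2. Under median-ratio scaling there were 2.

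Of the 15 loci at St3gal1, an enzyme that adds sialic acid to glycans (chr15:67102869-67176838), 14 had higher means at P7 and 2 were called. XLOC_025659 had 1.23, 0.896, 2.89 and 3.65 FPKM in the P1 hearts and 7.87, 5.01, 8.33 and 9.23 in the P7 hearts, and all P7 hearts were above all P1 hearts. It rose from 2.17 ± 1.32 at P1 to 7.61 ± 1.82 at P7 (SD, n = 4 each), a change of 1.51 ± 0.29 on the log2 scale (SE; adjusted p = 0.0197, limma), and in its mean over 8 hearts, 4.89 FPKM, it stood above the gene's 3.13. XLOC_025668 was the other call (log2 fold change 0.80, limma adjusted p = 0.040). St3gal1 had a log2 fold change of 0.55 and was not called (limma adjusted p = 0.153). Without P1 replicate 4 there were 5 calls, without P1 replicate 2 or P7 replicate 1 there were 0, and without any other heart 1. Under median-ratio scaling there were 3.

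Gpam, the mitochondrial enzyme that takes the first step of triglyceride synthesis (chr19:55067541-55103268), held 5 loci, all with higher means at P7. XLOC_036898 had 3.39, 2.77, 0.902 and 2.15 FPKM in the P1 hearts and 9.0, 4.46, 7.82 and 14.2 in the P7 hearts, without overlap. It rose from 2.3 ± 1.06 at P1 to 8.86 ± 4.03 at P7 (SD, n = 4 each), a change of 1.55 ± 0.32 on the log2 scale (SE; adjusted p = 0.0232, limma), on 2 to 28 fragments per heart. Gpam rose as well, from 9.21 ± 2.25 to 17 ± 2.92 FPKM (SD, n = 4 each), a change of 0.83 ± 0.20 on the log2 scale (SE; adjusted p = 0.0442, limma). The call of XLOC_036898 was lost without P1 replicate 2, P1 replicate 3, P7 replicate 1 or P7 replicate 3. Under median-ratio scaling 1 of the 5 loci was called.

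The remaining 9 calls, each the only one of its interval, were all higher at P7. For XLOC_057196, XLOC_070479, XLOC_037960 and XLOC_023228 this direction was favoured by selection, since every P1 heart was under 1 FPKM and they entered through the P7 hearts alone. The log2 fold changes of the 9 ran from 0.79 to 1.21 and their limma adjusted p from 0.024 to 0.0487. They lay in the intervals of Ktn1, a kinesin-binding protein of the endoplasmic reticulum (XLOC_021109), Bcl9l, a coactivator of beta-catenin (XLOC_072279), and Slc44a2, a choline transporter-like protein (XLOC_071820). Others were in those of Trak1, which links mitochondria to kinesin (XLOC_073328), of Itm2b, a membrane protein (XLOC_023228), and of Psd3, an exchange factor for ARF6 (XLOC_070479). The last 3 were at 2900026A02Rik (XLOC_057196), Gm13479 (XLOC_037960) and the pair AC154486.1 and Zfp945 (XLOC_031387). XLOC_037960, listed at 0 in P1 replicate 1, rested on 0 to 11 fragments per heart.

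Ktn1 was the exception in sign. XLOC_021109 had 5.65, 2.29, 3.66 and 4.44 FPKM in the P1 hearts and 9.84, 6.92, 8.24 and 7.66 in the P7 hearts and rose without overlap, a change of 0.91 ± 0.23 on the log2 scale (SE; adjusted p = 0.0461, limma), and all 8 loci of the interval had higher means at P7. Ktn1 itself had 25.1 ± 5.73 at P1 and 24.5 ± 4.33 at P7 (SD, n = 4 each) FPKM, a change of -0.029 ± 0.21 on the log2 scale (SE; adjusted p = 0.942, limma). The difference between the locus and the gene was 0.94 ± 0.25 (SE; adjusted p = 0.0827, limma), which did not pass. The call of XLOC_021109 was kept without P1 replicate 1 or P1 replicate 4 and lost without any other heart. Under median-ratio scaling no locus of this interval was called.

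The Hand2 interval (chr8:57291557-57325459) held the other group of high unannotated loci. Hand2 is a transcription factor needed for the growth of the right ventricle, and Hand2os1 is transcribed away from it on the minus strand. The files name 1 Hand2 locus in each strand run, and the 12 unannotated loci follow the one of the minus run, the strand of Hand2os1. The minus-run locus, taken as the containing gene for its higher mean, had 78.5, 71.1, 75.9 and 60.5 FPKM at P1 and 74.6, 51.1, 70.9 and 59.7 at P7. The plus-run locus had 31.6, 25.4, 24.2 and 24.5 FPKM at P1 and 54, 51, 40.1 and 40.8 at P7. Only the plus-run locus separated the stages. It rose (log2 fold change 0.79 ± 0.19 SE, adjusted p = 0.0376, limma), while the minus-run locus had a value of -0.16 ± 0.19 SE (adjusted p = 0.615, limma).

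All 12 unannotated loci had lower means at P7, with a median log2 fold change of -0.59, and none was called. Without P7 replicate 3 the median was -0.27, with 9 loci below 0 and 3 above it, and without P1 replicate 4 it was -0.52, with 11 below 0. The difference between these loci and the plus-run locus was not tested. XLOC_070313, the highest at 80.6 FPKM and the one locus of the 10 highest means outside Slc8a1, had 70.01, 87.1, 117 and 79.1 FPKM in the P1 hearts and 124, 62.5, 6.08 and 99.4 in the P7 hearts. XLOC_070312 and XLOC_070314 were low in the same heart, P7 replicate 3, at 2.37 and 3.13 FPKM, against 31.6 or more and 28.3 or more in the other P7 hearts. Without that heart the log2 fold change of XLOC_070313 went from -0.85 to 0.081. In contrast XLOC_070319, with 23.5, 18.6, 20.4 and 28.6 FPKM in the P1 hearts and 15.5, 11, 13.7 and 16.2 in the P7 hearts, was lower in every P7 heart, a change of -0.65 ± 0.20 on the log2 scale (SE; adjusted p = 0.098, limma). XLOC_070315, XLOC_070317 and XLOC_070322, next in mean, had log2 fold changes of -0.67, -0.44 and -0.11. Under median-ratio scaling 4 of the 12 were called lower.

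**Figure D5:**
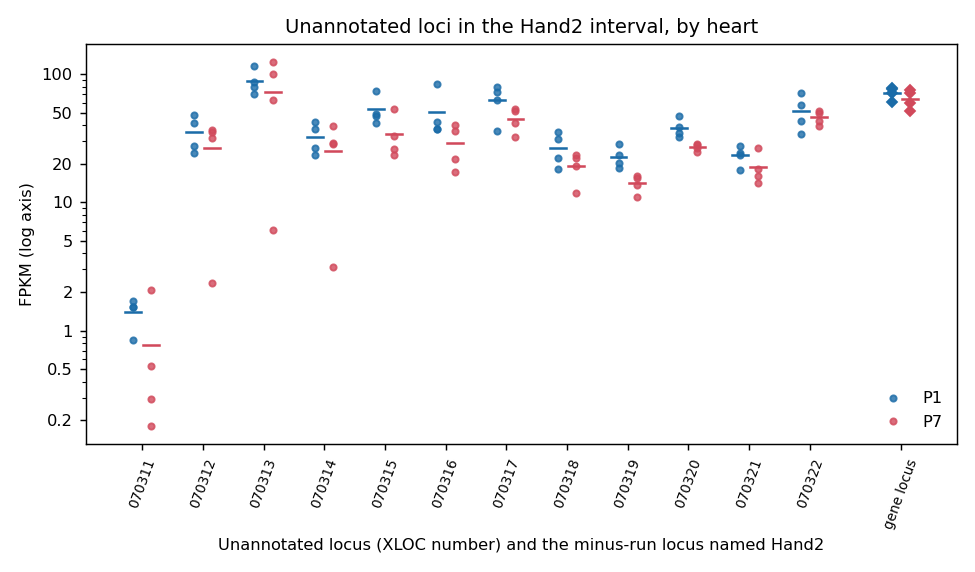
FPKM (log axis) of the 12 unannotated loci of the Hand2 interval and of the minus-run locus named Hand2 (diamonds) in each of 4 P1 hearts (blue) and 4 P7 hearts (red), with a bar at each stage mean. P7 replicate 3 is the single low point at XLOC_070312, XLOC_070313 and XLOC_070314, where it has 2.37, 6.08 and 3.13 FPKM.

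Whether a locus changed differently from its gene was tested on the difference of their log2(FPKM + 1) in each heart. Of 1349 loci tested, 0 were called with a more positive and 0 with a more negative change (limma, adjusted p under 0.05 over 2331 pairs), where 0.0429% of all pairs, 1 of 2331, were called. At an unadjusted p under 0.05 there were 49 more positive and 198 more negative, and the lowest adjusted p was 0.0590. With sample quality weights 9 and 56 were called, with no filter 4 and 7, after median-ratio scaling 2 and 0, without P1 replicate 4 there were 2 and 18, and without P7 replicate 1 there were 1 and 1. The median difference was -0.14 (quartiles -0.39 and 0.13). The pseudocount shrinks the change of a weak locus more than that of a strong gene, and its part in this difference was not tested.

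The 5 lowest p values in each direction are given as values, none of them a call. Beside Zfp930, a zinc finger gene whose own FPKM was 7.88 ± 2.17 at P1 and 3.97 ± 1.11 at P7 (SD, n = 4 each), XLOC_068839 had 0.542, 1.6, 0.657 and 1.0 FPKM in the P1 hearts and 0.861, 2.92, 4.37 and 1.8 in the P7 hearts. The gene was lower at P7 and the locus higher on average, a difference of 1.59 ± 0.27 (SE; adjusted p = 0.059, limma), on 2 to 11 fragments per heart. XLOC_068843 of the same interval differed by 1.33 ± 0.26 (SE; adjusted p = 0.0606, limma). Smaller positive differences, 0.65 to 0.84, were those of XLOC_056869 at G3bp2, a stress granule protein, XLOC_072761 at Dopey1 and XLOC_029749 at the pair Zfp52 and Zfp948. XLOC_056869 was under 1 FPKM in every P1 heart and entered through its P7 hearts alone, so its selection favoured a positive difference.

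In the negative direction the gene was higher at P7 and the locus changed less. XLOC_030102 beside Tnxa and Tnxb had 0.39, 0.67, 1.33 and 2.09 FPKM in the P1 hearts and 1.66, 1.17, 1.96 and 0.644 in the P7 hearts, a difference of -1.81 ± 0.30 (SE; adjusted p = 0.059, limma). XLOC_037698 beside Gsn, gelsolin, which severs actin filaments, had 0.503, 0.608, 0.255 and 1.82 FPKM in the P1 hearts and 1.0, 1.06, 1.07 and 0.976 in the P7 hearts. Gsn had 46.1 ± 29.5 at P1 and 108 ± 19.9 at P7 (SD, n = 4 each) FPKM, and the difference was -1.14 ± 0.21 (SE; adjusted p = 0.0606, limma). The others were XLOC_057611 at Tnrc18, XLOC_062988 at Lipe, the hormone-sensitive lipase, and XLOC_024636 at let-7b and let-7c-2, with differences of -1.09, -0.84 and -0.75. None of these was called.

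The 5 intervals with most unannotated loci held no call. At Gm4392 (chr3:127225090-127521241) there were 93, all on the strand of Ank2, the ankyrin that anchors the exchanger and ion channels, which GENCODE runs through this interval. A further 14 shared the interval named Ank2 (chr3:126921607-127035486). The locus named Gm4392 had 19 ± 2.38 at P1 and 18.5 ± 5.59 at P7 (SD, n = 4 each) FPKM and that named Ank2 18.7 ± 2.85 at P1 and 18.9 ± 3.57 at P7 (SD, n = 4 each). The 93 had means of 1.26 to 25.3 FPKM and changes of -0.74 to 0.57, with 35 above 0 and 58 below. No locus of either interval had its stages apart. The median of the 93, -0.061, turned to 0.029 without P1 replicate 4 and to 0.033 without P7 replicate 2.

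Pdzd2, a protein with PDZ domains (chr15:12355791-12739893), held 92 loci of 2.23 to 18.4 FPKM, 8 of which had a mean above that of the gene. Of the 92, 81 had a change below 0, with a median of -0.23 and the lowest at -2.16, which is the lowest of all 1353, while Pdzd2 had 11.7 ± 4.65 at P1 and 13.3 ± 2.61 at P7 (SD, n = 4 each) FPKM and a change of 0.21 (limma adjusted p = 0.605). The median of the 92 was -0.44 without P1 replicate 3, -0.45 without P7 replicate 1 and -0.15 without P7 replicate 4. No stages were apart and none was called. Rapgef2, an activator of Rap proteins (chr3:79061423-79287163), held 55 with a median change of 0.10. Fry, a regulator of cell shape and division (chr5:150118639-150499075), held 40 with a median of 0.26, 32 of them above 0. Syne1, or nesprin-1, which ties the nuclear envelope to the cytoskeleton (chr10:5018450-5290037), held 39 with a median of -0.045. None of these was called, and their stages were apart in 6, 4 and 1. Of all 1353 loci, 99 had stages apart with a higher mean at P7 and 31 with a lower one. The medians at Rapgef2, Fry and Syne1 moved with single hearts: without P1 replicate 4 they were 0.25, 0.41 and 0.072. After median-ratio scaling they were -0.087, 0.099 and -0.21.

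Few genes of the heart gene lists held such loci. A locus was matched to a list by its containing locus or by the GENCODE gene on its strand. It may therefore lie opposite the listed gene. Of 33 genes of calcium handling and ion channels, Ank2, Cacnb2 and Slc8a1 held 118 loci, 0 called higher and 4 lower, all at Slc8a1, with a median log2 fold change of -0.084. Of 35 genes of cardiac transcription and growth control, Hand2 and Tbx5 held 13, none called, with a median of -0.54. Those at Hand2 lie on the strand of Hand2os1. Of 39 genes of energy metabolism, Gpam held 5, 1 of them higher. Of 33 imprinted and long noncoding host RNAs, Mir99ahg held 8, none called, and of 32 genes of the cell cycle, Cdk4 held 1, none called. XLOC_006954 beside Cdk4, a kinase of G1 phase, had 5.22, 6.45, 8.11 and 3.65 FPKM in the P1 hearts and 8.95, 7.45, 9.43 and 7.61 in the P7 hearts, which overlapped. Of 35 genes of the sarcomere and cytoskeleton, the loci at Actn2 (XLOC_017182) and Myocd (XLOC_012481) had log2 fold changes of 0.088 and -0.38 and were not called. XLOC_017182 lies on the plus strand, where GENCODE has no gene over this interval. The 34 genes of the extracellular matrix and the 37 of ribosomal proteins and translation held 0 such loci.

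The 85 loci on the strand opposite to the containing gene came from 66 intervals. Their median mean was 1.57 FPKM, against 2.08 for the 1268 on the same strand. For 41 of the 85 another named locus of the interval lay on their own strand, and for 28 GENCODE has no gene there. XLOC_067617 at Sbk1, which entered through its P7 hearts alone, was the 1 called.

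Across hearts, 1021 to 1257 of the 1353 loci reached 1 FPKM at P1 and 1126 to 1260 at P7, means of 1122 ± 98.6 and 1192 ± 58.7 (SD, n = 4 each, two-sided exact permutation test, p = 0.229). Their summed FPKM was 5793 ± 1086 and 5270.2 ± 693 (SD, n = 4 each, exact permutation test, p = 0.514). With 4 hearts a stage the test cannot give less than 0.0286. Unannotated autosomal loci of any place at 1 FPKM numbered 6071 to 13695 at P1 and 4776 to 5906 at P7. Every P1 heart lay above every P7 heart (exact permutation test, p = 0.0286). This count includes loci at 1 FPKM in a single heart, whereas the 1353 needed 4 hearts, so the counts are not alike. P1 replicate 3, the heart with 13695, had the fewest of the 1353 at 1 FPKM, 1021. Without it the P1 hearts still lay above the P7 hearts (exact permutation test, p = 0.0571).

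The labelled tissue carried its markers. All 8 cardiomyocyte markers, 6 of fibroblasts and 5 of endothelium were at 1 FPKM or more in every heart. The same held for 5 of smooth muscle and pericytes and 3 of epicardium. Of 7 red cell markers 5 were found, all at 1 FPKM or more in every heart. Of the 5 leukocyte markers 3 met this limit, and of the 3 of Schwann cells 0. No marker found was at 0 throughout. Summed levels were higher at P7 without overlap for fibroblasts (786 to 1638 FPKM at P1, 1682 to 2105 at P7, 3 of 6 called higher) and leukocytes (15.8 to 21.8 and 34.6 to 47.7, 1 of 5 called higher). The stages overlapped for cardiomyocytes (10777 to 19203 and 12496 to 20669.9, 0 called). The part of such differences in the changes above was not tested.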

How the data were processed

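RNA-seq of whole hearts from 4 P1 and 4 P7 mice was used as deposited. The authors deposited FPKM per locus for each heart; alignment to GRCm38, summation to loci with Ensembl annotation and normalization were done by a service provider, and the aligner was not given in the sources used here. Columns of samples outside this series numbered 0.

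Each heart was grouped by the stage in its label. Loci that reached 1 FPKM in any heart entered limma 3.58.1 (R 4.3.3) with trend on log2(FPKM + 1), p-values being adjusted by Benjamini-Hochberg over all loci, and a call needed adjusted p under 0.05 and a ratio of means of at least 1.5. The containing gene was the shortest containing named locus, and at equal intervals the one with the higher mean. A second limma model tested the difference between locus and gene within each heart. The scripts were tested on simulated data. Heart-wide values had an exact permutation test. P-values rest on 4 mice per stage.

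The loci and gene lists were chosen with earlier results of these data known. Named loci are those with the 10 highest means, the 5 highest and 5 lowest changes among calls with stages apart, the 5 lowest p in each direction of the pair test, the 5 largest intervals, those at the limit and those in the lists; the other called loci, the remaining loci of the Slc8a1 and Hand2 intervals and those near miRNA hairpins were named after their values were seen. Lengths were recovered with a relative tolerance of 1e-05 from 800 bases and 0.0002 below. Alternatives covered the pseudocount, filter, scaling, replicate block, trend, sample weights, choice of gene and each heart left out. No genome sequence was used here, and sequences are from RefSeq tables.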

Additional observations from a re-analysis of the deposited data

Results flagged for a closer look

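Of 82 groups of 4 hearts, 4 held a heart whose gap to the nearest of the others exceeded Dixon's 95% critical value for 4 samples, where chance gives about 1 in 20. In the 2810055G20Rik interval, P1 replicate 4 stood apart at XLOC_027845, with 32.1 FPKM against 19.2 to 20.4 in the other P1 hearts. The same heart stood apart at XLOC_027852 of that interval, with 18.1 FPKM against 8.71 to 9.87. It did so again beside let-7b and let-7c-2, at XLOC_024636, with 4.14 FPKM against 1.85 to 2.07. At Sbk1, P1 replicate 3 was low at XLOC_064679, with 0.188 FPKM against 1.33 to 1.52 in the other P1 hearts.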

How the results depend on the processing

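The 25 higher and 7 lower loci became 6 and 2 with no filter, 80 and 22 with sample quality weights, and 15 and 6 without the trend, which kept 21 of the 32 calls. Among loci at 1 FPKM in all 8 hearts there were 4 and 4, and at 2 FPKM in 4 hearts 4 were lower. The lower count was 15 with 1 FPKM required in every heart, 43 after median-ratio scaling and 27 after quantile normalization. Containing genes called higher, 25, became 48 with that filter, 12 with none, 44 with weights and 15 for genes of the same strand, the last chosen after seeing the data. Those called lower, 1, became 4, 0, 2, 16 and 18 with that filter, no filter, weights, median-ratio scaling and quantile normalization, and 0 with a pseudocount of 0.1 or without the trend. Pairs more positive than the gene, 0, became 2 after median-ratio scaling, 4 with no filter and 9 with weights, and those more negative, 0, became 7 and 56. The causes were not tested. With 1 heart left out, higher loci numbered 1 to 82, lower 0 to 8, higher genes 2 to 48, lower genes 0 to 1, positive pairs 0 to 2 and negative pairs 0 to 18, the difference in loci at 1 FPKM 36 to 114.7 and in summed FPKM -903.5 to -43.3.

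The replicate numbers did not pair the hearts (correlations of 0.0581, 0.218, -0.276 and -0.124). With the number as a replicate block 29 loci were higher and 10 lower, 20 genes higher and 0 lower, and 0 pairs were called either way.

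Of 961 values for single loci under alternatives, 8 changed sign. These were XLOC_027845 without P1 replicate 4 (0.014, the range with 1 heart left out reaching -0.22), XLOC_027847 after median-ratio scaling (-0.15) and quantile normalization (-0.16), XLOC_017182 after median-ratio scaling (-0.065), with weights (-0.16) and without P1 replicate 3 (-0.086, reaching 0.25), XLOC_070313 without P7 replicate 3 (0.081, reaching -1.30) and XLOC_070322 without P1 replicate 4 (0.061, reaching -0.29). A limit of 300 bases on the interval removed no locus. Loci under 10 fragments limit the precision, and intervals shared with the gene give no position within it.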
